A study of Mus musculus with 9 samples.

Results

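Rbm3 and Cirbp are the genes of a pair of cold-inducible RNA-binding proteins, and they are 2 of the 38911 genes to which the rows of the deposited table of mouse hippocampus were summed. The members were taken by symbol, with every RefSeq transcript row of each gene, and were chosen by their measured counts in the libraries labelled sham and CLP, so their values in that comparison are a description with no test. The libraries come from adult BALB/c mice kept free of specific pathogens, 3 per group. One group had a sham operation (column label CTL), another had cecal ligation and puncture, a surgical model of abdominal sepsis shortened to CLP (column label SAE), and the third had CLP and 200 mg/kg of a flavonoid extract of Cuscuta chinensis (column label CCLF). Each library is called a biological duplicate in the labels, with no statement on pooling, and no source used here gives age in weeks, sex or time after surgery. Body temperature, which these genes are known to follow, was not analysed here.

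RBM3 and CIRBP each carry a single RNA-recognition motif and a glycine-rich tail, and cells raise both when they are mildly cooled. They bind messenger RNAs and support their stability and translation under cooling. In the mouse hippocampus RBM3 is known for its part in the re-formation of synapses after cooling, and signalling through the BDNF receptor TrkB lies upstream of it. CIRBP also binds clock transcripts and, when released from cells, acts as a danger signal through TLR4 on myeloid cells.

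The labels and the inflammation genes point in opposite directions. Lcn2, an acute-phase gene that infection raises, had 13246 to 14822 counts in each sham-labelled library and 6 to 14 in each CLP-labelled one, with 4524 to 9635 where the label is CLP plus extract. Cxcl10, an interferon-induced chemokine gene, had 1396 to 6980, 3 to 10 and 383 to 3919 counts in the same order. No label was changed, and each direction given here follows the labels alone. Library totals ran from 4626519 to 4895474 counts. Counts in the 3 extract libraries lay unusually close together: over genes with a mean of 5 to 100 counts, the median ratio of variance to mean was 0.24 there, against 1.03 in the sham-labelled and 1.01 in the CLP-labelled group. In 94.7% of 9950 genes with a mean of at least 5 counts, all 3 extract libraries lay within the range of the other 6. Extract values are therefore given as deposited, with no test. The hippocampal label was met by Slc17a7, a gene of excitatory neurons, at 5668 and 6343 CPM (counts scaled to a common library total) in the sham-labelled and CLP-labelled means, and by C1ql2, a gene of dentate granule cells, at 241 and 261 CPM. Prox1, another gene of those cells, had 1.49 and 1.05.

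Cirbp's promoter is printed because a mild-cold response element with the letters TCCCCGCC has been described in this gene. Of the members, Cirbp matched 2 windows in RefSeq's promoter table for GRCm38.p6, the C57BL/6J reference, and Rbm3 was not matched. The first window, 250 bases that end at the annotated start (chr10:80167589-80167838, plus strand), holds the element once, in capitals, beginning 247 bases before the start.

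Cirbp promoter: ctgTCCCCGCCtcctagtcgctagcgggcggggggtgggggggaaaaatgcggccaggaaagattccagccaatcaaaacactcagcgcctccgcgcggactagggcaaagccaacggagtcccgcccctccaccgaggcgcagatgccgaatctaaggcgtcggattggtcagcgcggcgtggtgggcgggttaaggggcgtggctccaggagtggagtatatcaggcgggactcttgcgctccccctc

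The letters TCCCCGCC, searched on both strands, occurred in 4.64% of 32851 promoter windows of this length. The same Cirbp window held the GC box GGGCGG 3 times and CCAAT 2 times, counted over both strands, and 32.7% and 33.8% of all windows held those letters. None of these matches overlapped. The heat-shock element GAANNTTC, which reads the same on both strands, was not in this window and was in 6.69% of all windows. The second Cirbp window had no match to TCCCCGCC. These are matches of letters in a reference of another strain, and no measurement of binding or promoter use was analysed here.

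Rbm3 was low in every library labelled sham and higher in every other library. Its counts were 12, 5 and 2 in the sham-labelled replicates 1 to 3, 73, 97 and 75 in the CLP-labelled replicates, and 69, 55 and 57 in the replicates labelled CLP plus extract. The highest sham-labelled count was below the lowest of either other group. On the CPM scale the means were 1.37 ± 1.14 (SD, n = 3) in the sham-labelled group, 17.2 ± 3.07 in the CLP-labelled group and 12.8 ± 1.61 in the extract group. The fold between the CLP-labelled and sham-labelled groups was 3.65 ± 0.33 on the log2 scale (estimate ± SE). The sham-labelled libraries set its precision, since they held 19 Rbm3 counts in all against 245 in the CLP-labelled libraries. As a ratio of summed counts per total it was 13.1, with an exact 95% interval of 8.21 to 22.1 that covers counting error only. Without sham-labelled replicate 1, the library with 12 counts, the log2 fold was 4.50 ± 0.38.

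Cirbp differed less. Its counts were 17, 22 and 19 in the sham-labelled replicates 1 to 3, 42, 24 and 27 in the CLP-labelled replicates, and 26, 16 and 17 in the extract replicates. The CLP-labelled counts began just above the highest sham-labelled count, and the extract counts overlapped both groups. Mean levels were 4.10 ± 0.444 CPM (SD, n = 3) with the sham label, 6.53 ± 2.04 with the CLP label and 4.17 ± 1.17 with the extract label. The log2 fold, CLP-labelled minus sham-labelled, was 0.66 ± 0.28, and 0.39 ± 0.31 without CLP-labelled replicate 1, the library with 42 counts. The ratio of summed counts was 1.63, with a counting interval of 1.16 to 2.30.

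**Figure D1:**
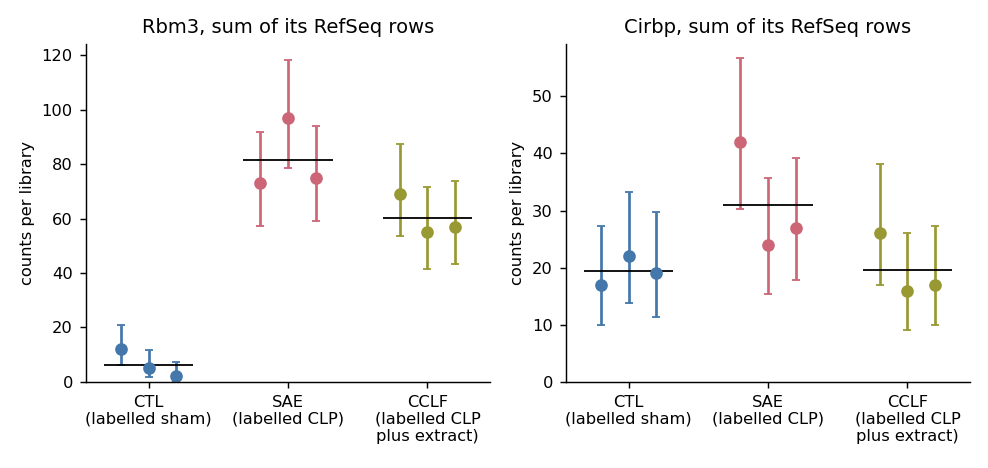
Counts per library (vertical axis) of Rbm3 and Cirbp by label, with exact 95% Poisson intervals as bars and group means as horizontal lines. Rbm3 runs from 2 to 12 counts in the sham-labelled libraries and from 55 to 97 in all others, while the 3 groups of Cirbp lie between 16 and 42.

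Both genes had groups that did not overlap between the CLP and sham labels. So did 55.7% of the 8213 genes tested, and 28.1% lay higher with the CLP label, and this contrast chose the members, so nothing is read from it. Across all tested genes the median log2 fold was 0.00, and 636 genes lay more than 1 higher and 752 more than 1 lower. Rbm3 stood near the upper end, with 8 genes at a higher fold. Cirbp had 1224 above it.

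Within each library Rbm3's counts can be set against Cirbp's, which leaves the scaling out. Rbm3 made up 41.4%, 18.5% and 9.52% of the summed counts of both genes in the sham-labelled replicates, and 63.5%, 80.2% and 73.5% in the CLP-labelled ones. In the extract replicates its share was 72.6%, 77.5% and 77.0%. Extract and CLP-labelled libraries overlapped in this share, and both lay above the sham-labelled ones. Exact 95% intervals ran from 23.5% to 61.1% around the highest sham-labelled share and from 54.0% to 72.3% around the lowest CLP-labelled share. Counts are not scaled to transcript length here, so the share says nothing on which gene is more abundant.

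The extract libraries stood differently for the members. For Rbm3 the CLP-labelled to extract ratio of summed counts was 1.36 (counting interval 1.12 to 1.65), and the extract to sham-labelled ratio was 9.66 (6.01 to 16.4). For Cirbp these ratios were 1.58 (1.13 to 2.23) and 1.03 (0.705 to 1.51). All 3 extract libraries lay within the range of the other 6 for Rbm3, and not for Cirbp, where extract replicate 2 was the lowest of the 9. Extract replicate 2 held 16 Cirbp counts against 17 in sham-labelled replicate 1, a gap within counting error. The ratio of variance to mean of the extract counts was 0.95 for Rbm3 and 1.54 for Cirbp. In the sham-labelled and CLP-labelled groups it was 4.16 and 2.17 for Rbm3, and 0.328 and 3 for Cirbp. Where libraries spread more than counting error does, the counting intervals are too narrow. The comparisons share libraries and were not tested.

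All of Rbm3's counts lay in 1 of its 5 RefSeq rows. NM_016809.6 held 445 of 445 counts over the 9 libraries, and the other 4 coding rows had 0 in each. For counting error alone, 0 allows up to 3 counts or 0.613 to 0.648 CPM in a library. That bound leaves out how reads shared between rows were assigned, so it does not cap the level of these 4 transcripts. GENCODE M21 pairs NM_016809.6 with the coding model Rbm3-201, which is 2792 bases long. It pairs the 4 rows at 0 with a coding model of 1338 bases and another of 1225 bases. Rbm3-201 ends in a last exon of 2231 bases with 0 coding bases, which overlaps no exon of the other paired models. Of its 2762 overlapping words of 31 bases, 80.8% were in no other paired model, against 11% for the model of 1338 bases and 0% for that of 1225 bases. Exons 2 to 5, which hold most of the coding bases, have the same lengths in all 3 models, and the counted row is the one with a long untranslated last exon of its own. Which part of the row the reads came from is not known from this table, and the fold of Rbm3 is the fold of this row.

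**Figure D2:**
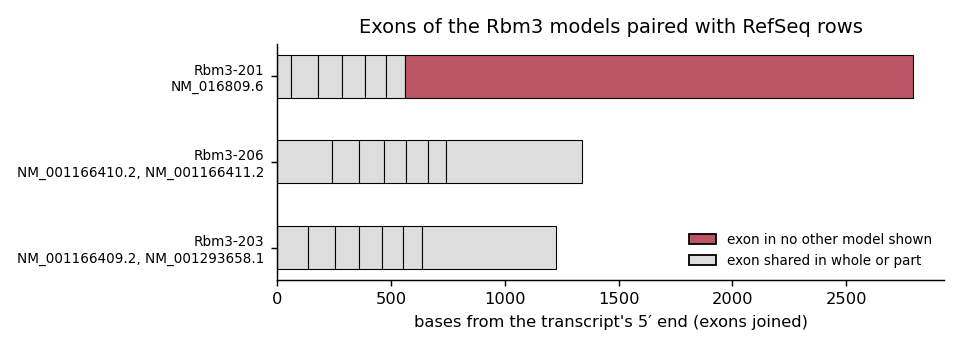
Exons, joined from the 5′ end, of the 3 GENCODE M21 models of Rbm3 that are paired with RefSeq rows, with the horizontal axis in bases of transcript. The 2231-base last exon of Rbm3-201, in red, is in neither other model, and the row paired with Rbm3-201 holds all 445 Rbm3 counts.

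Cirbp's counts came mostly from a row that codes for no protein. Of its 8 rows, 3 had counts and 5 had 0 in every library. The non-coding row NR_152857.1 held 184 of 210 counts (87.6%, exact 95% interval 82.4% to 91.8%). The interval covers counting error only. How much sequence this row shares with the coding rows was not examined, so reads may have been assigned between them. It had 12, 16 and 13 counts in the sham-labelled replicates, 40, 23 and 27 in the CLP-labelled replicates, and 24, 13 and 16 in the extract replicates. Its CLP-labelled counts were above all its sham-labelled counts. The coding row NM_001379425.1 ran the other way, with 5, 6 and 5 counts in the sham-labelled replicates, 2, 1 and 0 in the CLP-labelled and 2, 3 and 1 in the extract replicates. The coding row NM_001379424.1 had 1 count, in sham-labelled replicate 3.

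The make-up of Cirbp's counts, as assigned to rows, therefore differed between labels. The non-coding row's share was 70.7% of 58 counts in the sham-labelled libraries (exact interval 57.3% to 81.9%, 68.4% to 72.7% per library). In the CLP-labelled libraries it was 96.8% of 93 counts (90.9% to 99.3%, 95.2% to 100% per library), and in the extract libraries 89.8% of 59 (79.2% to 96.2%). In a fit of transcript rows, NR_152857.1 alone had a log2 fold of 1.11 ± 0.31, and the coding row was too low to be fitted. The coding row NM_007705.3, an earlier version of which GENCODE pairs with the coding model Cirbp-202 of 1321 bases, had 0 counts in every library. The sum for Cirbp is thus mostly the count assigned to a non-coding row, and the level of each transcript is not known from it.

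**Figure D3:**
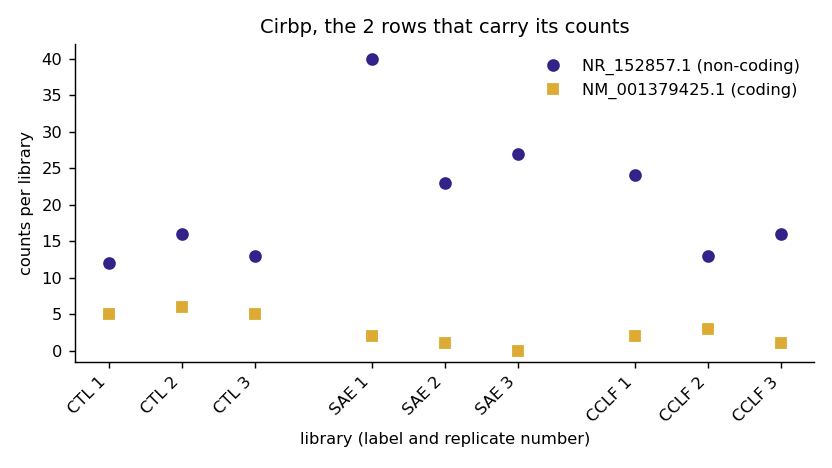
Counts (vertical axis) of the 2 Cirbp rows with more than 1 count, by library (horizontal axis). The non-coding row runs from 12 to 16 with the sham label and 23 to 40 with the CLP label, and the coding row from 5 to 6 and from 0 to 2.

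Genes next to the members were read for counts that could be shared. Rbm3os, an antisense non-coding gene that overlaps Rbm3, had 4 to 11 sham-labelled, 2 to 10 CLP-labelled and 6 to 7 extract counts. Its groups overlapped, and it was too low to be tested. No source used here says whether the counting used strand, so reads of Rbm3 and Rbm3os in their overlap cannot be told apart. Wdr13, the gene on the other side of Rbm3, rose from 4.69 ± 1.54 to 11.7 ± 2.84 CPM with the CLP label (log2 fold 1.32 ± 0.26, edgeR adjusted p = 0.000191). Tbc1d25, beyond Rbm3os, had 0 to 2 counts per library.

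Cirbp lies between Midn and Fam174c. Midn, the gene of a nuclear protein that guides proteins to the proteasome, had 8 to 23 sham-labelled and 14 to 18 CLP-labelled counts (log2 fold 0.14 ± 0.37, adjusted p = 0.782). Fam174c rose from 5.68 ± 2.26 to 9.06 ± 0.512 CPM (0.66 ± 0.26, adjusted p = 0.0403). That call was lost with the DESeq2 Wald test (adjusted p = 0.122). It was also lost without sham-labelled replicate 1 (0.245) and without CLP-labelled replicate 1 (0.0646), 2 (0.0996) or 3 (0.0636).

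Upstream and partner genes of the cold response were partly measurable. Of 10 genes written for this list, 5 could be tested, 2 were higher with the CLP label and 0 lower, with a median log2 fold of 0.31. Over all tested genes 23.7% were called higher and 23.9% lower (47.6% in either direction). Clk1, a splicing kinase whose activity follows temperature, rose from 26.6 ± 2.81 to 56.9 ± 4.0 CPM (1.09 ± 0.12, adjusted p = 2.69e-08), with 116 to 135 counts against 253 to 279. Its extract libraries held 169 to 274 counts and so reached into the CLP-labelled range. Bdnf, the ligand of TrkB, rose from 6.23 ± 0.378 to 11.6 ± 2.46 CPM (0.90 ± 0.22, adjusted p = 0.00171).

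The receptor and its downstream genes gave less. Ntrk2, which encodes TrkB, had 23 to 37 sham-labelled and 16 to 24 CLP-labelled counts (−0.45 ± 0.28, adjusted p = 0.198). Plcg1, a phospholipase below TrkB, had a fold of 0.11 ± 0.05 (adjusted p = 0.104), and 0.14 without CLP-labelled replicate 3 (adjusted p = 0.0449). Clk4, a kinase related to Clk1, had 0.31 ± 0.15 (adjusted p = 0.0851), and 0.49 without sham-labelled replicate 3 (adjusted p = 0.0107). The list held 4 called genes without CLP-labelled replicate 3. Rtn3, a gene whose messenger RNA RBM3 is known to act on, had 3 to 13 sham-labelled and 1 to 4 CLP-labelled counts and was not tested. Creb1 had 0 to 1 counts, Sp1 0 to 3, Hnrnph1 2 to 5, and Hsf1, the heat-shock transcription factor gene, 0 in every library.

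Genes with a cold-shock domain, another fold of RNA-binding protein, were tested in 3 of 8 cases, with 1 higher and 0 lower. Among all tested genes 23.7% were called higher. Csdc2 rose from 312 ± 9.41 to 413 ± 14.9 CPM (0.40 ± 0.05, adjusted p = 2.64e-07). Ybx1 (0.45 ± 0.36, adjusted p = 0.32) and Ybx3 (−0.30 ± 0.25, adjusted p = 0.334) did not pass.

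Other genes named Rbm went in both directions. Of 43 such genes in the table, antisense transcripts included, 16 had 0 counts in all 9 libraries, among them Rbmx and Rbmxl1, which encode nuclear RNA-binding proteins. Of the 12 tested, 2 were higher with the CLP label and 6 lower (median −0.27), against 23.7% and 23.9% of all tested genes. Rbm28, a nucleolar protein gene, rose from 58.2 ± 4.92 to 84.7 ± 5.53 CPM (0.54 ± 0.09, adjusted p = 2.87e-05). Rbm39 had 0.26 ± 0.10 (adjusted p = 0.0313), a call lost with the DESeq2 Wald test (adjusted p = 0.0886), without sham-labelled replicate 1 (0.172) and without CLP-labelled replicate 2 (0.113). Rbm6 fell from 4.58 ± 0.967 to 1.90 ± 0.395 CPM (−1.27 ± 0.35, adjusted p = 0.00438). Rbmx2 fell by 0.82 ± 0.14, Rbm22, a spliceosome gene, by 0.55 ± 0.06 and Rbm17, a splicing factor gene, by 0.31 ± 0.06 on the log2 scale, with adjusted p of 2.51e-05, 7.82e-08 and 0.000259.

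Transcripts that RBM3 or CIRBP is known to bind were tested in 3 of 7 cases, and all 3 were lower with the CLP label. The share called lower was 23.9% over all tested genes. Rpa2, a gene of single-stranded DNA binding, fell from 53.5 ± 1.99 to 34.6 ± 5.27 CPM (−0.63 ± 0.12, adjusted p = 7.14e-05). Ptgs2, the inducible cyclooxygenase gene, fell from 156 ± 11.1 to 119 ± 9.34 CPM (−0.39 ± 0.07, adjusted p = 6.72e-05). Txn1, the thioredoxin gene, fell from 209 ± 7.44 to 167 ± 19.6 CPM (−0.33 ± 0.07, adjusted p = 0.000495). Clock had 0 to 2 counts, Atr 0 to 3, Hif1a 0 to 1, and Vegfa 0 in every library.

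Of 8 genes linked to signalling by extracellular CIRBP, 2 could be tested and both were lower with the CLP label. Over all tested genes 23.9% were called lower. Tlr4, its receptor, fell from 18.3 ± 2.38 to 7.81 ± 1.93 CPM (−1.23 ± 0.20, adjusted p = 1.65e-05), with 75 to 97 counts against 27 to 42. Cd14, the co-receptor gene, fell from 56.3 ± 18.4 to 6.56 ± 2.60 CPM (−3.11 ± 0.37, adjusted p = 0.000927). Both follow the direction of Lcn2 and not that of Rbm3. Ly96, Trem1, Nlrp3 and Il6 had 0 counts in every library, Tnf 0 to 1 and Il1b 0 to 2.

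Heat-shock genes, which warming raises, split in direction. Of 15 tested, 4 were higher and 3 lower with the CLP label (median 0.03), against 23.7% and 23.9% of all tested genes. Hspb1, a small heat-shock protein gene, had the largest change of the list and fell from 143.5 ± 16.7 to 17.0 ± 5.03 CPM (−3.09 ± 0.18, adjusted p = 1.06e-06). Chordc1 rose from 62.8 ± 8.69 to 181 ± 6.61 CPM (1.52 ± 0.08, adjusted p = 1.81e-13) and Fkbp4 by 0.36 ± 0.05 (adjusted p = 5.47e-07), both co-chaperones of Hsp90. Hsp90ab1 itself fell from 8905 ± 73.3 to 7396 ± 199 CPM (−0.27 ± 0.03, adjusted p = 1.88e-08), and Bag3 from 66.8 ± 9.26 to 36.9 ± 0.21 (−0.86 ± 0.11, adjusted p = 5.63e-07). Hspa1a and Hspa1b, the inducible Hsp70 genes and near-identical copies whose counts may be split between them, had 146 to 227 counts in the 6 libraries compared. Their groups overlapped (adjusted p = 0.225 and 0.811).

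Clock genes, on whose amplitude CIRBP acts, had 2 higher and 2 lower of 8 tested (median −0.15). The shares over all tested genes were 23.7% higher and 23.9% lower. Tef rose by 0.58 ± 0.16 (adjusted p = 0.00359) and Nr1d2 by 0.16 ± 0.05 (adjusted p = 0.00528). Per1 fell from 5.54 ± 1.11 to 2.30 ± 1.68 CPM (−1.25 ± 0.39, adjusted p = 0.00998). Its call was lost without sham-labelled replicate 1 (0.0574) and without CLP-labelled replicate 1 (0.0511) or 2 (0.0653). Bhlhe40 fell by 0.37 ± 0.09 (adjusted p = 0.00735), a call lost without CLP-labelled replicate 3 (0.0927). Per2, Per3 and Hlf had 0 counts in every library.

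**Figure D4:**
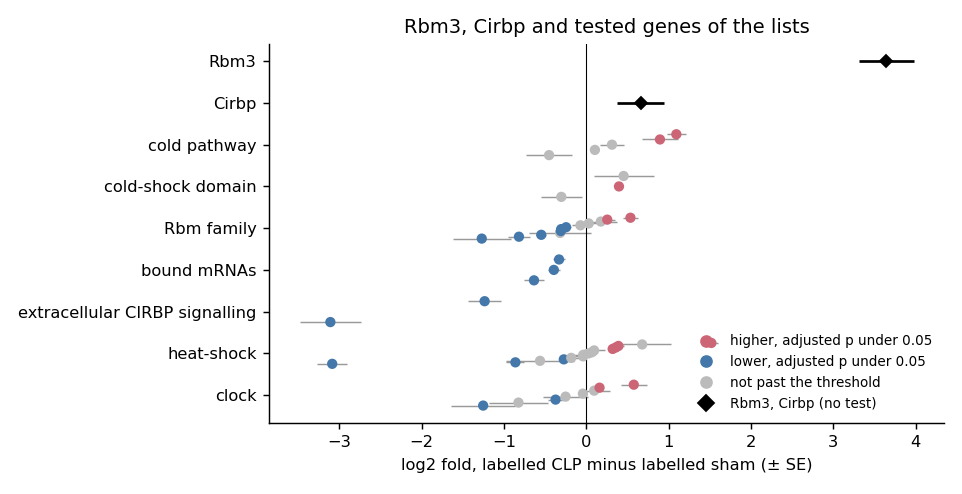
Log2 fold of CLP-labelled minus sham-labelled libraries (horizontal axis, ± SE) for Rbm3, Cirbp and each tested gene of the 7 lists (vertical axis), coloured by call. Rbm3 at 3.65 lies above every list gene shown, and the called genes of the bound-transcript and extracellular CIRBP lists all lie below 0.

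The genes most like Rbm3 over the 9 libraries, by Pearson correlation of log2 CPM among 5934 other genes whose mean reached 5 CPM, were Cyp2j6 (r = 0.98), Gpt (0.98), B230206H07Rik (0.97), Secisbp2 (0.97) and Gm47814 (0.97). Gpt, an alanine aminotransferase gene, had means of 20.1, 50.2 and 45.4 CPM in the sham-labelled, CLP-labelled and extract groups. Secisbp2, whose protein is needed to make selenoproteins, had 3.41, 8.42 and 7.63. In all, 159 genes had r above 0.9 with Rbm3 and 61 below −0.9. For Cirbp the highest were Mia (0.90), Sntb1 (0.88), Gm49668 (0.88), Gm42127 (0.88) and Gpr165 (0.87), and 1 gene passed 0.9. The 9 points fall under 3 labels. Rbm3's sham-labelled libraries stand apart from the rest, so its correlations can follow from that gap alone. Cirbp's extract libraries overlap both other groups, so its correlations are not read as an order of groups.

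Markers of several cell types differed between the same labels as Rbm3, and in bulk tissue fewer cells of a type and less RNA per cell cannot be told apart. The summed level of 6 microglial genes was 307 to 376 CPM in sham-labelled, 467 to 504 in CLP-labelled and 396 to 426 in extract libraries, with P2ry12 at 0 throughout. Summed levels of 6 oligodendrocyte genes were 429 to 486, 654 to 761 and 550 to 650, and those of 6 endothelial genes 295 to 337, 423 to 446 and 303 to 433, with Pecam1 at 0. All 4 tested microglial genes, 3 of 4 oligodendrocyte genes and 2 of 3 endothelial genes were called higher with the CLP label. The third endothelial gene, Cldn5, a tight junction gene, was called lower (157.8 to 76.1 CPM, log2 fold −1.06, adjusted p = 8.22e-11). Summed levels of 7 neutrophil genes ran the other way, at 49.5 to 68.4, 2.48 to 4.28 and 16.3 to 45.8 CPM, with S100a9 at 0 and both tested genes called lower. The 8 choroid plexus genes summed to 529 to 838 CPM in sham-labelled and 705 to 1419 in CLP-labelled libraries, and 1 of 5 tested was called higher. The highest of these values was CLP-labelled replicate 1, the library with the most Cirbp counts. CLP-labelled replicates 2 and 3 had sums of 900 and 705 CPM, with 24 and 27 Cirbp counts. Sham-labelled replicate 1 had its group's highest sum (838 CPM) and fewest Cirbp counts (17). Extract replicate 3 had its group's highest sum (841 CPM) with 17 Cirbp counts, against 26 in extract replicate 1. Exact intervals of the Cirbp counts overlap within each group, so their order within a group cannot be read. Summed excitatory neuron genes did not overlap (8328 to 8495 and 9074 to 9277 CPM), with 2 of 8 tested called higher and 2 lower. Slc17a7 made up most of this sum. Csf1r made up most of the microglial sum, at 335 and 415 CPM in the sham-labelled and CLP-labelled means. Summed astrocyte genes overlapped between these labels (3252 to 3501 and 3398 to 3462 CPM), a sum that Slc1a3, a glutamate transporter gene, dominates. Of the 5 astrocyte genes tested, Gfap (log2 fold −2.80), Aqp4 (−1.61) and Slc1a3 (−0.21) were called lower and Gja1 (1.11) higher. The summed red blood cell genes lay lower with the CLP label (584 to 604 and 458 to 564 CPM), with 2 of 4 tested called lower. Beside these marker counts, 23.7% of all tested genes were called higher and 23.9% lower with the CLP label. The part of these cells in the levels of Rbm3 and Cirbp was not tested.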

How the data were processed

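RNA sequencing libraries of hippocampus, 9 in all and 3 per label, were analysed after removal of ribosomal RNA. The authors deposited 1 table of whole-number counts per RefSeq transcript. Per the submitters' processing notes, fastp and Salmon were used; no source used here states their versions, the index, the strand setting or the build. The table's 120312 rows were matched to symbols with RefSeq's GRCm38.p6 table and summed to 38911 genes. Groups were taken from the sample titles. The 13 mitochondrial protein rows had 0 counts.

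Genes were kept with filterByExpr, scaled with edgeR's TMM (factors 0.984 to 1.02 over 9 libraries) and tested in the 6 sham-labelled and CLP-labelled libraries with edgeR's quasi-likelihood test, robust, with Benjamini-Hochberg adjustment over 8213 genes and a threshold of 0.05. Each SE was taken as the fold's size over the root of its F statistic. CPM uses the scaling over 9 libraries, and log2 CPM for correlations a prior count of 2. Intervals are exact (Poisson, Clopper-Pearson or conditional binomial) at 95% and cover counting error only. P-values set the difference between labels against the spread between libraries of a label. With pooling not stated, that spread may not be the spread between mice. Totals of 4626519 to 4895474 counts leave genes with few counts untested.

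The members and lists were chosen with earlier results of these data known. Named list genes are up to 4 with the smallest adjusted p, Rbm genes up to 4 of the highest and lowest called folds, untested partners by their counts, the 5 genes most like each member, and neighbours. Ntrk2, Hspb1, Hspa1a, Hspa1b, Rbmx, Rbmxl1 and the cell type markers given by name were added after their values were seen. The test was checked on simulated data. Alternatives were other scaling, tests, filters, all 9 libraries, replicate number as a block, transcript rows and each library left out.

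Computations used Python 3.11.15 with pandas 2.3.3, scipy 1.17.1 and matplotlib 3.10.9, and R 4.3.3 with DESeq2 1.42.0, edgeR 4.0.16 and limma 3.58.1.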

Additional observations from a re-analysis of the deposited data

How the results depend on the processing

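Rbm3's log2 fold of 3.65 lay between 3.64 and 3.87 under other scaling, tests, filters, all 9 libraries and the replicate block (3.65 with the block), and between 3.21 and 4.50 when 1 library was left out. Cirbp's 0.66 lay between 0.62 and 0.67 under the same settings (0.64 with the block), between 0.39 and 0.82 with 1 library left out, and at 1.11 for its non-coding row alone, where the coding counts of the sham-labelled libraries are not in the sum. Same-numbered libraries of the sham and CLP labels did not deviate together (r of 0.03, −0.01 and 0.02 for numbers 1 to 3), and not every library correlated best with its own number, so the numbers are not taken as pairs. The block gave 3892 called genes against 3912, and the other alternatives 3186 to 4318. Called list genes (27) ran from 26 to 29. Of 403 recomputed folds of 31 other named genes, 14 changed their call and 1 changed direction: Midn, not called in either case, had 0.14 with all libraries and ran from −0.17 (without sham-labelled replicate 3) to 0.60 (without sham-labelled replicate 2) with 1 library left out. Rbm3's 19 and Cirbp's 58 sham-labelled counts limit both folds.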
